A study of Homo sapiens with 6 samples.

Results

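The regions described here are 228 peaks of the histone mark H3K27ac that lay at promoters and were found in both libraries of the leukemia line MV4-11 and in neither library of the leukemia line Kasumi-1. Each is a peak of the MV4-11 control list on chromosomes 1 to 22 and X that overlapped, by at least 1 base, a peak of the MV4-11 knockdown list and no peak of either Kasumi-1 list. Each also overlapped a promoter window, the 2500 bases to each side of the canonical transcription start of a protein-coding gene. They are 228 of the 24491 MV4-11 control peaks on these chromosomes and 3.17% of the 7189 control peaks that reached a promoter window. Members were chosen by the presence and absence of peaks in the 4 lists, so that share is a description and nothing is read from it.

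CUT&Tag, in which an antibody guides a transposase to cut the DNA around a histone mark, was used to map H3K27ac in the 2 human acute myeloid leukemia lines. MV4-11 carries a KMT2A fusion and an internal tandem duplication of FLT3, and Kasumi-1 carries the RUNX1::RUNX1T1 fusion. Each line gave 1 control library (NC) and 1 library with ANP32B knocked down by a short hairpin RNA (sh-ANP32B). The control samples are marked as untreated in the labels, while the methods describe lentiviral hairpin lines selected with puromycin, and which hairpin against ANP32B was used for these libraries is not given. Replicates had been merged before peak calling, so each group has 1 peak list, with no spread between replicates and no test, and all values compare these 4 libraries.

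Acetylation of lysine 27 on histone H3 marks active promoters and enhancers, and it is laid down by the acetyltransferases p300 and CBP. Promoters fall broadly into a class rich in CpG dinucleotides, which serves genes used in most cells, and a class poor in CpG, which often serves genes of one tissue or lineage. In monocytes and macrophages the latter class includes genes for pattern receptors, inflammasome sensors and lysosomal enzymes, and their control regions are known to hold sites for PU.1, C/EBP, RUNX, IRF and AP-1 factors.

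The promoter sequences of 6 genes with a member are printed here as examples. They are the 6 genes of the gene lists described below with the widest peaks whose 250 bases upstream of the canonical start lay wholly inside the MV4-11 peaks of both libraries and overlapped no annotated untranslated region. Only 60 of the 228 members (26.3%) covered the nearest start, so the 6 sequences do not stand for all members. All 6 are on build hg38 and are printed 5′ to 3′ on the strand of the gene. ARHGAP25 (chr2:68734561-68734810, plus strand) encodes a GTPase-activating protein for Rac of blood cells, and MNDA (chr1:158831101-158831350, plus strand) and AIM2 (chr1:159076767-159077016, minus strand) encode interferon-inducible nuclear and DNA-sensing proteins of one family. ARHGEF6 (chrX:136780933-136781182, minus strand) encodes an exchange factor for Rac and Cdc42, CLEC12A (chr12:9971159-9971408, plus strand) an inhibitory lectin receptor of myeloid cells, and C3AR1 (chr12:8066360-8066609, minus strand) the receptor for complement fragment C3a. Capitals mark the letters of any of 16 searched motifs on either strand.
ARHGAP25: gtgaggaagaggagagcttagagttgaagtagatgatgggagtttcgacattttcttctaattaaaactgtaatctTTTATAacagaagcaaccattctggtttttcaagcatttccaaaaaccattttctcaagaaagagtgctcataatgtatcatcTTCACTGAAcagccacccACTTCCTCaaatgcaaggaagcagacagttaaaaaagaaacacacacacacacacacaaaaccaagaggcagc
MNDA: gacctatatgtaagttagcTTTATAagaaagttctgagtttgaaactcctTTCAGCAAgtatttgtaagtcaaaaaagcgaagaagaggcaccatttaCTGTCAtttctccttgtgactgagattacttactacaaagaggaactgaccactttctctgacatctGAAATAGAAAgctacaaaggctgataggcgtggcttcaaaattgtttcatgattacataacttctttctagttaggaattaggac
AIM2: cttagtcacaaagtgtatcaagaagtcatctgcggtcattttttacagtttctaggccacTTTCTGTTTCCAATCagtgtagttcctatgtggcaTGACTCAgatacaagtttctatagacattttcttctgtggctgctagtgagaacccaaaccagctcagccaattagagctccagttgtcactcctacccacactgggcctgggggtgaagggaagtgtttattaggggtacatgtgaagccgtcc
ARHGEF6: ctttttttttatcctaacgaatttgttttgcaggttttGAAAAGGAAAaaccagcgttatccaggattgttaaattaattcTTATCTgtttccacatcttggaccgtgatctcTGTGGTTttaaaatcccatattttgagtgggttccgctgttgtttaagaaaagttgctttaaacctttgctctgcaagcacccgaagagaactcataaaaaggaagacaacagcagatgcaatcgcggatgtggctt
CLEC12A: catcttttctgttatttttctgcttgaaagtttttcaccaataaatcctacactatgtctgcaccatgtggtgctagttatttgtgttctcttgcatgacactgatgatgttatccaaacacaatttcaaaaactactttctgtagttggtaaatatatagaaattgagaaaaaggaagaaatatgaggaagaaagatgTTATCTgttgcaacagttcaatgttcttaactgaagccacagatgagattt
C3AR1: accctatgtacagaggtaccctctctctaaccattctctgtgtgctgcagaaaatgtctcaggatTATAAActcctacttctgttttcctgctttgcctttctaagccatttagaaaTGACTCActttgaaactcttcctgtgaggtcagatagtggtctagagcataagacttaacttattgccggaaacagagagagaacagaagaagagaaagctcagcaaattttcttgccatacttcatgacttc
These windows had a GC content of 32.8% to 45.6%, lowest in CLEC12A, which held 0 CpG dinucleotides, and highest in AIM2, which held 2. ARHGEF6 stood apart with 7 CpG in its 250 bases. AP-1 letters, which are TGACTCA with any base at the centre, stand in AIM2 and C3AR1. The letters of the TATA box, TATAAA, stand in ARHGAP25, MNDA and C3AR1. GATA letters, AGATAA, stand in ARHGEF6 and CLEC12A. IRF letters, which are GAAA repeated after any 2 bases, stand in MNDA, AIM2 and ARHGEF6. GAGGAAGT (ETS with a PU.1 flank) and TTCNNNGAA (STAT) appear in ARHGAP25, TTGCNNAA (C/EBP) and TGACAG (MEIS) in MNDA, TGTGGTT (RUNX) in ARHGEF6, and CCAATC (NF-Y) in AIM2, where it shares 1 base with the IRF letters. The TATA letters ended 169, 226 and 180 bases before the start in ARHGAP25, MNDA and C3AR1. Over the same 250 bases of all 19970 protein-coding promoters, AP-1 letters were in 4.73%, TATA in 9.36%, GATA in 6.54%, IRF in 2.84%, the PU.1-flanked ETS letters in 2.06%, STAT in 5.68%, C/EBP in 7.14%, MEIS in 11.6%, RUNX in 2.80% and NF-Y in 17.5%. A match is a description of letters and not evidence of a bound factor.

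Before the results, the line names were set against 15 marker genes, by the bases that lay under peaks in each gene's promoter window. Over the 7 genes chosen as markers of MV4-11, the sums were 15352 and 15850 bases in Kasumi-1 without and with knockdown and 7736 and 5744 in MV4-11, so this list was higher in the Kasumi-1 libraries. HOXA9 had 4335 and 4707 bases in the Kasumi-1 libraries against 769 and 659 in the MV4-11 libraries, FLT3 had 2028 and 2008 against 299 and 0, and ITGAM had 885 and 870 against 0 and 0. LYZ, the lysozyme gene, went the other way with 0 in both Kasumi-1 libraries and 683 and 324 in MV4-11, and CD14 was at 0 in all 4. Over the 8 Kasumi-1 markers, the sums were 3783 and 4358 bases in Kasumi-1 and 1839 and 1679 in MV4-11, the direction of the labels. Both lists were thus higher in the Kasumi-1 libraries. CD34 had peaks only in the Kasumi-1 libraries. IGFBP7 had peaks in all 4, with 3030 and 3242 bases in Kasumi-1 against 1839 and 1679 in MV4-11. RUNX1T1, POU4F1, KIT, TRH and PAX5 had none in any library. Several markers thus go against the labels or do not tell the lines apart. The names are used as the labels give them, and no result can be given without these libraries, because each line has no others. The window of the targeted gene, ANP32B, held 3447 and 3432 bases in the control and knockdown libraries of Kasumi-1 and 3433 and 2631 in those of MV4-11.

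Members were then placed within the MV4-11 list. Of the 7189 promoter peaks of MV4-11 NC, 459 overlapped no Kasumi-1 peak, and 228 of these were also in MV4-11 sh-ANP32B, or 49.7% (Wilson 95% interval 45.1 to 54.2, counting error only, as for all intervals below). Among the promoter peaks that did overlap a Kasumi-1 peak, 73.2% (72.2 to 74.3) were also in MV4-11 sh-ANP32B. The 231 promoter peaks without a Kasumi-1 overlap that were absent after knockdown had a median width of 402 bases, and 6 of them reached 1000 bases. Members had a median width of 656 bases in MV4-11 NC (quartiles 459 and 1024.5, range 292 to 2430), and 59 of them reached 1000 bases. Promoter peaks found in all 4 libraries had a median of 1187 bases, all MV4-11 NC promoter peaks 904, and distal peaks found only in both MV4-11 libraries 721. A wide peak is more likely to overlap some Kasumi-1 peak, so the rule itself favours narrow members. Of the 4522 MV4-11 NC peaks at any position that were in both MV4-11 libraries and in no Kasumi-1 list, members made up 5.04% (4.44 to 5.72), whereas 38.4% (37.5 to 39.2) of the MV4-11 peaks that had a Kasumi-1 overlap and were present after knockdown were at promoters.

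The rule has sharp edges, and some members sat close to them. The peak of TLR1, a Toll-like receptor, overlapped its sh-ANP32B peak by 22 bases and that of LIN7A by 50, while peaks near PDE6G and CKS2 missed by 61 and 187 bases. On the Kasumi-1 side, the peaks of OTUD6B and RAB32 lay 6 and 8 bases from a Kasumi-1 peak, while those near ULK1 and ANXA2 were left out for an overlap of 9 bases each. Against the promoter window, CLEC9A entered by 4 bases and PTPRC by 14, while peaks near KYNU and LYRM1 missed by 14 and 21.

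With this window, most members did not cover a transcription start, and the share depends on the window. A peak covered the nearest canonical start in 60 of 228 members (26.3%, 21.0 to 32.4), lay wholly upstream in 62 and wholly downstream in 106. By the position of the peak centre, 110 were in an intron of the nearest gene, 23 in an exon, 91 upstream of it and 4 beyond its end. The centre was within 500 bases of the start in 71 members and within 1000 in 90. Among promoter peaks found in all 4 libraries, 68.5% (67.2 to 69.8) covered the nearest start, and the share was 69.2% (67.1 to 71.1) for the 2072 promoter peaks found only in both Kasumi-1 libraries. When every annotated transcript start was counted, 33.8% of members (27.9 to 40.1) covered one, against 80.5% (79.4 to 81.6) of the peaks in all 4 libraries and 77.8% (76.0 to 79.6) of the Kasumi-1-only peaks. With a window of 1000 bases, 55.6% of the members then found covered the nearest canonical start, and among members of at least 1000 bases the share was 45.8%.

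**Figure D1:**
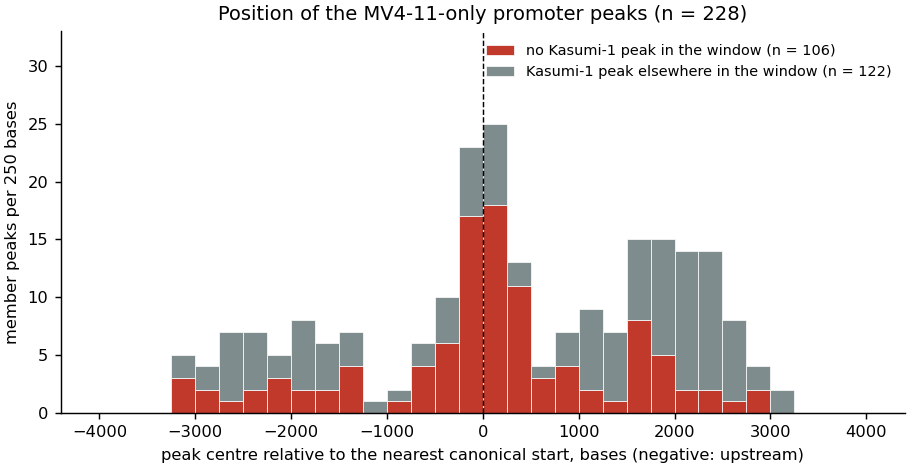
Number of members (y axis) by the distance of the peak centre from the nearest canonical start in bases (x axis, 250-base bins, negative is upstream), with members whose nearest gene had no Kasumi-1 peak in its window (n = 106) stacked with those whose nearest gene had one (n = 122). The former cluster at the start and the latter lie mostly away from it, with median distances of 514 and 1871.5 bases.

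The members were split by whether the window of the nearest gene held a Kasumi-1 peak. That split uses the lists that chose the members and sets part of the distances given here, so the values are a description. In 106 members the window of the nearest gene had no Kasumi-1 peak at all, and in 122 it had a Kasumi-1 peak elsewhere. Members of the former kind covered the start in 45 cases (42.5%), and their median distance to the nearest Kasumi-1 peak was 35709 bases. Members of the latter kind covered it in 15 cases (12.3%), and their median distance was 675 bases. Over all 228, the distance ran from 6 to 1745704 bases with a median of 1695.5, 87 were within 1000 bases and 29 were more than 100000 bases away.

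By gene, 245 protein-coding genes had a member in the window, which is 1.23% of the 19970 tested. Of these, 139 (56.7%, 50.5 to 62.8) also had a Kasumi-1 peak in the window, 12 of them only in Kasumi-1 sh-ANP32B and 5 only in Kasumi-1 NC, and 106 (43.3%, 37.2 to 49.5) had none. No Kasumi-1 peak lay within 50 kb of the start of 45 genes (18.4%). Windows with MV4-11 peaks in both libraries and none in Kasumi-1 were uncommon, at 113 of 5415 genes (2.09%), and 104 of these 113 had a member. One member could reach several windows, as 25 did. The member at chr17:44901110-44901760 reached CCDC103, EFTUD2 and FAM187A, and the one at chr3:50353167-50353570 reached CYB561D2, NPRL2 and the readthrough gene ENSG00000272104. For such peaks the gene served is not known.

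Genes of monocytes and macrophages were the list with the most members. Of its 84 genes, 11 had a member in the window (13.1%, beside 1.23% of all genes), namely C3AR1, CLEC5A, CTSS, CYBB, LILRB2, LYZ, MNDA, MS4A3, MS4A6A, TLR1 and TLR4. MV4-11 peaks were in both libraries for 38 of the 84 windows, beside 27.1% of all genes. Of those 38, 8 had no Kasumi-1 peak, beside 113 of 5415 such windows over all genes (2.09%). A Kasumi-1 peak was in 42 of the 84 windows, beside 48.6% of all genes. Peaks in both Kasumi-1 libraries and none in MV4-11 were in 6 windows (7.14%), beside 9.74% of all genes. Members can show only the genes on the MV4-11 side. The line difference in each gene that follows was used to choose the members and is given as description. Each value is the number of bases under peaks in the promoter window, a width and not a height.

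MNDA, the myeloid nuclear differentiation antigen, had 0 bases in both Kasumi-1 libraries, 2190 in MV4-11 NC and 1606 after knockdown. MS4A6A, a membrane protein of monocytes and macrophages, had 0, 0, 2128 and 1102, where 4 values stand, here and below, for Kasumi-1 without and with knockdown and then MV4-11 without and with knockdown. Both windows were empty in Kasumi-1 and narrower after knockdown in MV4-11. CYBB, the catalytic subunit of the phagocyte NADPH oxidase, had 0, 0, 792 and 982 bases, C3AR1 had 0, 0, 729 and 746, and LYZ had 0, 0, 683 and 324. The difference between the MV4-11 libraries therefore had no common direction, with LYZ narrower after knockdown, CYBB wider and C3AR1 close to level. LILRB2, an inhibitory receptor for MHC class I, had 0, 0, 431 and 415, and TLR1 had 0, 0, 308 and 686.

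The other 4 genes of that list had Kasumi-1 peaks in the same windows. TLR4, the receptor for lipopolysaccharide, had 535 and 522 bases in the Kasumi-1 libraries against 2951 and 2917 in those of MV4-11. CLEC5A, an activating lectin receptor, had 802 and 815 against 2756 and 2675. In these genes the MV4-11 windows were covered over a greater length in both conditions, and the member was 1 peak among others, of 778 bases in TLR4 and 465 in CLEC5A in MV4-11 NC. CTSS, which encodes cathepsin S, did not share that order, with 462, 614, 469 and 354 bases, and MS4A3, a gene of granulocyte-monocyte progenitors, had 0, 465, 1298 and 1109. The member of CTSS covered its start and ended 919 bases from the nearest Kasumi-1 peak, so that the lines had like covered lengths at different positions.

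Genes of interferon response and innate sensing gave 5 of 59 (8.47%, beside 1.23% of all genes). In the same list, 8 windows (13.6%, beside 9.74% of all genes) had peaks in both Kasumi-1 libraries and none in MV4-11. A Kasumi-1 peak was in 31 windows, beside 48.6% of all genes. MV4-11 peaks were in both libraries for 18, beside 27.1% of all genes. IFI16, a DNA sensor of the same family as MNDA and AIM2, had 0, 494, 2374 and 2301 bases. AIM2, whose protein forms an inflammasome on cytosolic DNA, had 0, 0, 1141 and 1637. Peaks of all 3 family members thus covered the start in MV4-11 NC. CASP1, the protease that cleaves pro-interleukin-1β and pro-interleukin-18, had 0, 0, 908 and 293 bases, and CASP4, the caspase that senses cytosolic lipopolysaccharide, had 479, 636, 394 and 380. Only CASP4 among these 5 had more bases in the Kasumi-1 libraries than in those of MV4-11. IFIT3, an interferon-induced antiviral gene, had 0, 0, 802 and 779.

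Cytokines and chemokines gave 2 of 59 genes (3.39%, beside 1.23% of all genes). In this list 1 window (1.69%, beside 9.74% of all genes) had peaks in both Kasumi-1 libraries and none in MV4-11. CXCL8, the neutrophil attractant interleukin-8, had 0 bases in both Kasumi-1 libraries, 2306 in MV4-11 NC and 2343 after knockdown, in each case as 1 peak across the start. IL18 had 439, 497, 2212 and 1562. Its member of 783 bases lay in an intron with the centre 2788 bases downstream of the start, and the rest of the MV4-11 length came from other peaks. Among 65 cytokine and growth factor receptors, 1 had a member (1.54%, near the share of all genes). In that list, 4 windows (6.15%, beside 9.74% of all genes) had peaks in both Kasumi-1 libraries and none in MV4-11. The gene with a member was TGFBR2, a receptor for TGF-β, and the member had 1612 bases upstream of the start. Its window held 1382, 2210, 2966 and 3245 bases, and in the last library the member was part of 1 peak of 3245 bases.

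Transcription factors of the myeloid lineage and stem cells gave 3 of 60 (5%, beside 1.23% of all genes). In this list 2 windows (3.33%, beside 9.74% of all genes) had peaks in both Kasumi-1 libraries and none in MV4-11. IKZF1, which encodes Ikaros, had 1802, 1202, 2374 and 1427 bases, with a member in its intron of 1558 bases in MV4-11 NC and 601 after knockdown. TFEC, a macrophage member of the MiT family, had 0, 420, 675 and 918. The MV4-11 libraries differed in opposite directions for IKZF1 and TFEC, with the knockdown library narrower at IKZF1 and wider at TFEC.

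Regulators of adhesion and the cytoskeleton gave 4 of 60 (6.67%, beside 1.23% of all genes). In this list 2 windows (3.33%, beside 9.74% of all genes) had peaks in both Kasumi-1 libraries and none in MV4-11. ARHGEF6 held 2 members, and its window had 0 bases in both Kasumi-1 libraries, 2121 in MV4-11 NC and 1617 after knockdown. ARHGAP25, whose promoter sequence is shown above, had 1005, 718, 1883 and 1357, with a member that lay 321 bases from a Kasumi-1 peak. The other two, ARHGAP15, a GTPase-activating protein for Rac, and JAML, an adhesion molecule of leukocytes, had 0 in both Kasumi-1 libraries, with 553 and 735 bases for ARHGAP15 and 552 and 1114 for JAML in MV4-11. Of these 4 genes only ARHGAP25 had a Kasumi-1 peak in the window.

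Surface antigens of leukemia gave 3 of 42 (7.14%, beside 1.23% of all genes). In this list 3 windows (7.14%, beside 9.74% of all genes) had peaks in both Kasumi-1 libraries and none in MV4-11. The reverse was seen for 2 windows (4.76%, beside 0.566% of all genes). CLEC12A, a target of antibodies in this disease, had 0 bases in both Kasumi-1 libraries, 1099 in MV4-11 NC and 780 after knockdown. CD84 and CD48, receptors of the SLAM family, had 0, 0, 585 and 381, and 410, 862, 1009 and 1167. The lymphoid and natural killer list gave 1 of 57 (1.75%, near the share of all genes), namely KLRG1, with 0, 0, 1008 and 285. In that list 2 windows (3.51%, beside 9.74% of all genes) had peaks in both Kasumi-1 libraries and none in MV4-11. No member lay at the 32 targets and cofactors of KMT2A fusions, the 28 neutrophil granule genes, 35 erythroid, megakaryocyte and mast cell genes, 42 genes of the STAT5 and ERK response, 15 MHC class II genes or 39 ribosomal protein genes. With a member at only 1.23% of all genes, lists of these sizes can hold none, so nothing is read from these zeros. For the KMT2A fusion targets, 13 of the 32 windows had MV4-11 peaks in both libraries and none of these 13 was free of Kasumi-1 peaks. Over all genes, 2.09% of such windows were free of them. Over the lists together, 30 of 661 genes had a member (4.54%, beside 1.23% of all genes), and the lists were chosen with earlier results of these data known.

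**Figure D2:**
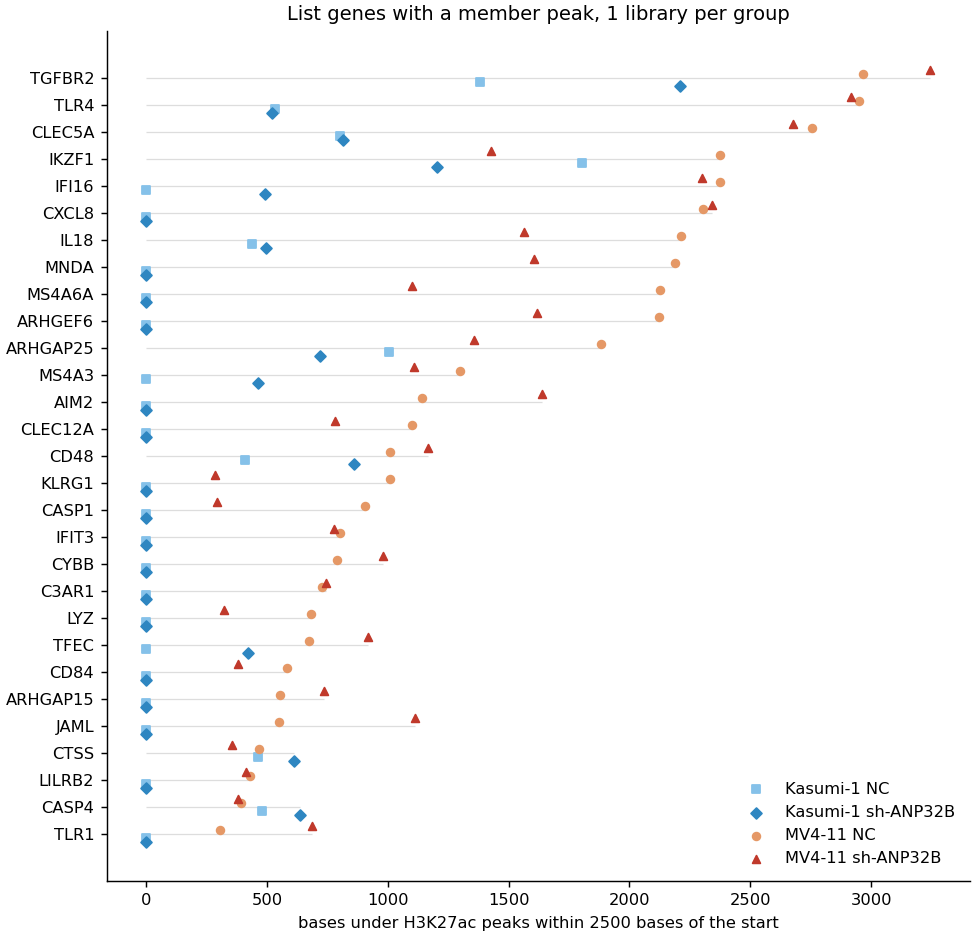
Bases under H3K27ac peaks within 2500 bases of the start (x axis) for 29 genes of the lists with a member in the window (y axis), 1 symbol per library and 1 library per group, so no error is shown. The Kasumi-1 symbols are at 0 for genes such as CXCL8, MNDA and AIM2, while CASP4 has more bases in Kasumi-1.

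Outside the lists, the widest members were a mixed group. The widest, upstream of RAMACL, had 2430 bases in MV4-11 NC but only 822 bases, in 2 peaks, in MV4-11 sh-ANP32B, and those no longer reached the RAMACL window. VAC14, a scaffold of the lipid kinase PIKfyve, had an upstream member of 2059 bases in MV4-11 NC and 3163 after knockdown and a second member over its start. ELF1, an ETS transcription factor, had 1738 and 1901 bases across its start without and with knockdown. PTPN22, a phosphatase of immune receptor signaling, had 1456 and 1165, and WIPF1, a partner of the Wiskott-Aldrich syndrome protein, 1379 and 1539. Apart from the peaks of RAMACL and VAC14, these widths were within 1.5-fold of each other in the MV4-11 libraries.

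Other wide members showed larger differences in width. EVI2A, which lies within an intron of NF1, had 1558 bases in MV4-11 NC and 649 after knockdown. CNOT8, a subunit of the CCR4-NOT deadenylase, had 1315 and 685, BAMBI, a decoy receptor of TGF-β signaling, 1644 and 994, and TAGAP, a GTPase-activating protein of lymphocytes, 1301 and 875. The widths after knockdown were lower for each of these 4. The rest of the 30 widest were GLIPR1, TM4SF1, MORC3, ADCK2, ABCB4, TUBGCP5, GPR18, COMMD3, ENSG00000265118, ANKRD22, C1orf162, TARP, CD101, MR1, PPIAL4H and ENSG00000284337, beside the list genes above. The last of these shares its region with LIMS3, a near copy of LIMS4, and PPIAL4H belongs to a family of close copies, so the placement of reads there is uncertain.

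Control and knockdown were compared for members by the width of peaks matched 1 to 1 between the MV4-11 libraries. For 216 members the median width was 653.5 bases in MV4-11 NC and 627.5 after knockdown, and the median log2 ratio of sh-ANP32B to NC was −0.07 (quartiles −0.46 and 0.29). Of these, 127 (58.8%) were narrower and 89 wider after knockdown, where 63.4% of all 15348 matched MV4-11 peaks were narrower. A difference of more than 1.5-fold was seen in 40 members that were narrower (18.5%) and 27 that were wider (12.5%), against 22.3% and 8.51% of all matched peaks. The members' shares were thus near those of the whole list. Promoter peaks found in all 4 libraries had a median log2 ratio of −0.24, and 75.4% were narrower.

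Width itself moved with these ratios. Members under 500 bases in MV4-11 NC had a median log2 ratio of 0.38 (n = 69), those of 500 to under 1000 bases −0.19 (n = 94) and those of at least 1000 bases −0.24 (n = 53). In the same classes, the promoter peaks found in all 4 libraries had 0.04, −0.24 and −0.29. At 500 bases and more, members and other promoter peaks therefore had like ratios, while of the 69 narrow members 42 were wider after knockdown, 22 of them by over 1.5-fold, and 27 (39.1%) were narrower. The classes are cut on the MV4-11 NC width, which is also the denominator of the ratio. The smallest peak of the sh-ANP32B list had 275 bases, so the narrowest members had little room to be narrower. The difference between the width classes is thus partly set in advance. A member had to be found in sh-ANP32B to be counted, so losses are not in these ratios.

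**Figure D3:**
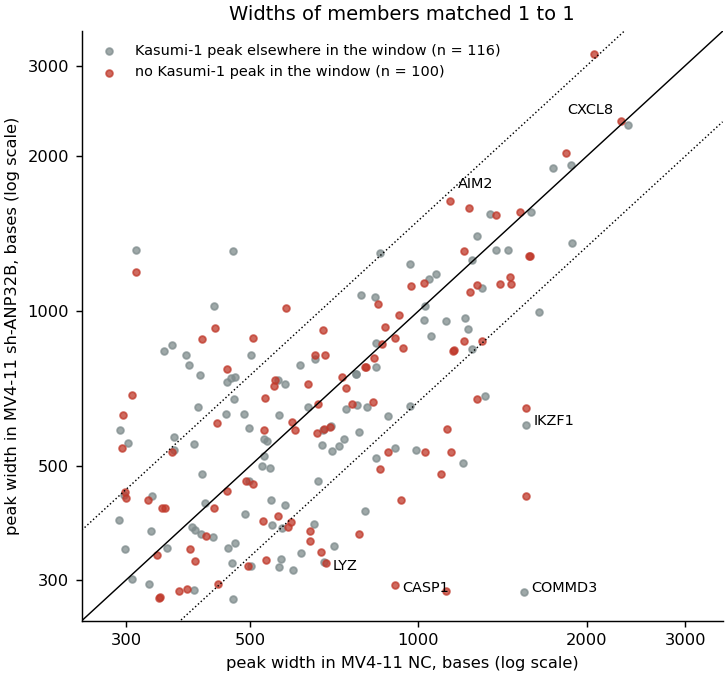
Peak width in MV4-11 NC (x axis, log scale) and MV4-11 sh-ANP32B (y axis, log scale), in bases, for the 216 members matched 1 to 1, split by whether the window of the nearest gene had a Kasumi-1 peak (n = 116) or not (n = 100). The solid line is equal width and the dotted lines are 1.5-fold, with 40 members below and 27 above the dotted lines.

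Single members ranged from a log2 ratio of −2.44 to 2.07. The largest narrowing was upstream of COMMD3, next to BMI1, from 1546 bases in NC to 284 in sh-ANP32B. KLRG1, a lectin receptor of lymphocytes, had 1119 and 285 bases (−1.97), a member of GPR18, a G protein-coupled receptor, 1560 and 437 (−1.84), CASP1 908 and 293 (−1.63), and IKZF1 1558 and 601 (−1.37). All 5 were over 900 bases in NC. In the other direction, the members of ZFAND5 had 313 and 1316 bases (2.07), ARMH1 466 and 1311 (1.49), PPP4C, a protein phosphatase subunit, 351 and 835 (1.25), and HK2, a hexokinase of glycolysis, 431 and 1025 (1.25). These 4 were under 500 bases in NC. A split into 2 peaks after knockdown was seen for 6 members, at RAMACL, ENSG00000284337, MORC3, MR1, GPR18 and ATP6V0A1.

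The sequence under the members was not used to choose them. In 500-base windows at the peak centre, members had a median GC content of 42.8% (quartiles 38.95 and 47.4) and a median ratio of observed to expected CpG of 0.21. Promoter peaks in all 4 libraries had 63.8% and 0.76, and promoter peaks found only in both Kasumi-1 libraries had 64.0% and 0.76. A composition like that of a CpG island, with a GC content of at least 55% and a CpG ratio of at least 0.65, was found in 20 members (8.77%, 5.75 to 13.2), in 60.3% (58.9 to 61.7) of the promoter peaks in all 4 libraries and in 64.8% (62.7 to 66.8) of the Kasumi-1-only ones. The median for members was close to that of the 4294 distal peaks found only in both MV4-11 libraries, at 41.6% GC. No test was made, since regions of 1 library are not replicates.

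**Figure D4:**
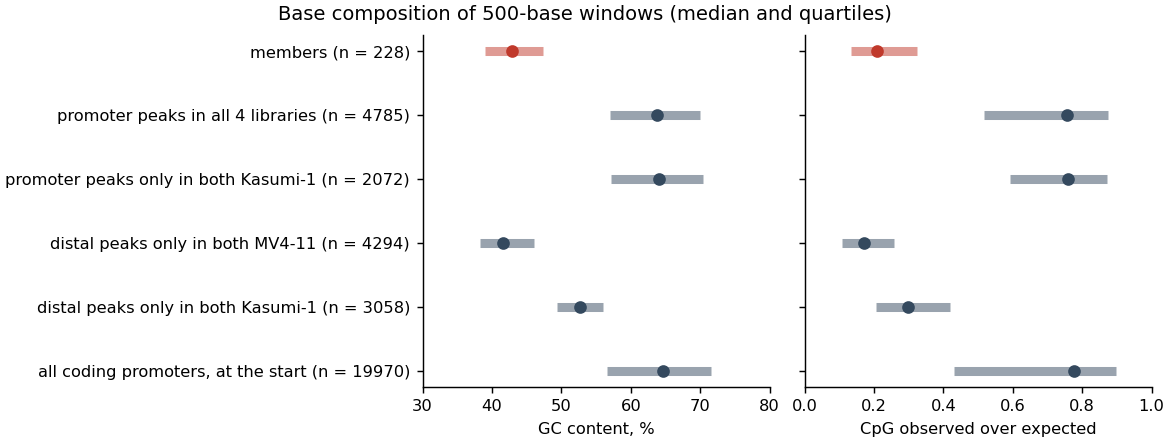
Median (point) and quartiles (bar) of GC content in percent (left x axis) and of observed over expected CpG (right x axis) in 500-base windows, for members, 4 other sets of peaks and the starts of all protein-coding genes (y axis). Members, at 42.8% GC, sit beside the distal MV4-11 peaks at 41.6% and apart from the other promoter peaks at 63.8% and 64.0%.

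Members that covered no annotated start had a median GC content of 42.6% (n = 151) against 57.2% for such promoter peaks in all 4 libraries (n = 932) and 54.8% for the Kasumi-1-only ones (n = 459). At the start of the genes themselves, the 106 genes with no Kasumi-1 peak in the window had a median GC content of 47.3%, and 26.4% of these starts were island-like. The 139 genes with a Kasumi-1 peak in the window had 65.2%, and 68.3% were island-like, beside 64.6% and 62.7% for all 19970 promoters. Low GC at the start was thus seen for the genes without a Kasumi-1 peak, while the other member genes had starts like those of most genes.

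The share of MV4-11 promoter peaks that were members varied with GC content. Of the MV4-11 NC promoter peaks also present in sh-ANP32B, members were 74 of 145 below 40% GC (51.0%, 43.0 to 59.0), 107 of 526 from 40 to under 50% (20.3%, 17.1 to 24.0) and 47 of 4485 at 50% and above (1.05%, 0.789 to 1.39). In the reverse comparison the shares on the 2 sides of 50% GC were alike. Kasumi-1-only peaks were 134 of 534 Kasumi-1 promoter peaks below 50% GC (25.1%, 21.6 to 28.9) and 1938 of 7805 at 50% and above (24.8%, 23.9 to 25.8). Only 9 of the 534 were below 40% GC, and 0 of these were Kasumi-1-only. That is too few to judge the reverse share below 40% GC, where the share of members was highest. The libraries themselves differed in composition. The median GC content of all peaks was 55.6% and 54.4% in the Kasumi-1 libraries without and with knockdown and 51.2% and 50.8% in those of MV4-11, and 6.23%, 8.20%, 12.9% and 14.2% of their promoter peaks were under 50% GC. A difference between the lines and a difference between libraries in the recovery of GC-poor DNA cannot be told apart here, as each library belongs to 1 line.

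Several motifs were in a larger share of members than of the promoter peaks in all 4 libraries, and in a still larger share of distal peaks found only in MV4-11. Of the 16 motifs, the TATA letters were in 30.7% of the 500-base windows (25.1 to 37.0), TTGCNNAA (C/EBP) in 29.4% (23.9 to 35.6), the AP-1 letters in 25.9% (20.6 to 31.9) and the GATA letters in 23.7% (18.6 to 29.6). In promoter peaks of all 4 libraries these were in 7.25%, 12.6%, 8.40% and 8.80%, and in 500 bases at the start of all promoters in 11.7%, 11.6%, 7.47% and 10.2%. In distal peaks found only in both MV4-11 libraries they were in 35.0%, 35.9%, 31.5% and 30.6%. The MEIS letters were in 28.5% of members, 21.0% of the peaks in all 4 libraries and 30.7% of those distal peaks. TGTGGTT (RUNX) was in 11.8% of members, 5.64% of the peaks in all 4 libraries and 16.2% of the distal peaks, while the IRF letters were in 10.5%, 4.56% and 8.99%, and GAGGAAGT (ETS with a PU.1 flank) in 9.21%, 5.37% and 8.57%. GGGCGGG (SP and KLF), which is rich in G and C, was in 9.21%, 46.6% and 2.59%. NRF1 and CREB letters, both with a CpG, were in 0 of 228 members.

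AP-1 letters were also compared in windows with a GC content under 50% alone, an alternative chosen after the data were seen. They were in 53 of 181 members (29.3%, 23.1 to 36.3), in 63 of 456 promoter peaks of all 4 libraries (13.8%, 10.9 to 17.3) and in 13 of 134 promoter peaks found only in Kasumi-1 (9.70%, 5.76 to 15.9). The distal peaks showed the same order, with 1251 of 3763 MV4-11-only and 111 of 857 Kasumi-1-only peaks. The sets were not matched in GC content below 50%. Of the 181 members 74 were below 40% GC, and of the 134 Kasumi-1-only promoter peaks 0 were. Whether composition accounts for the differences was not tested. For C/EBP letters, members and promoter peaks of all 4 libraries came close at 32.0% and 32.9%, for GATA at 26.0% and 29.2% and for RUNX at 14.4% and 12.9%. With windows over an annotated start also left out, AP-1 letters were in 28.5% of 130 members (21.4 to 36.7) and in 17.1% of 217 peaks of all 4 libraries (12.6 to 22.6), and these intervals overlap.

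**Figure D5:**
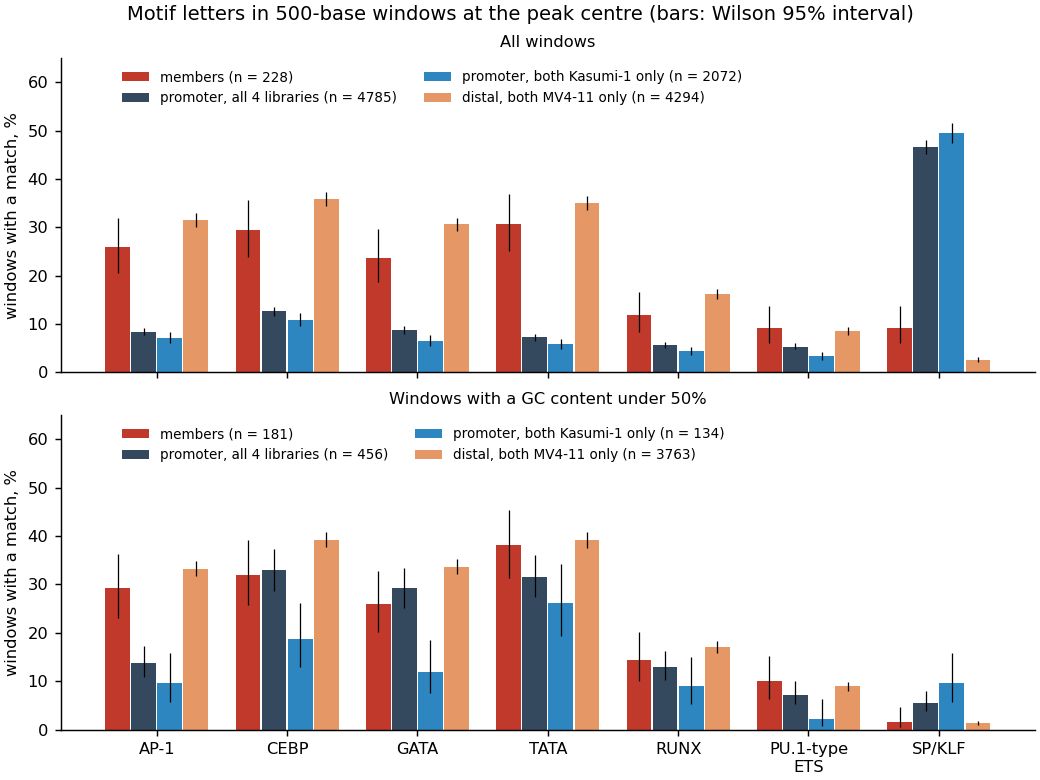
Share of 500-base windows with the letters of 7 motifs (y axis, percent, bars from 0 with Wilson 95% intervals) in members and 3 other sets of peaks, for all windows (upper) and for windows under 50% GC (lower). Under 50% GC, AP-1 letters are in 29.3% of members and 13.8% of the promoter peaks in all 4 libraries, while C/EBP letters are in 32.0% and 32.9%. In promoter peaks found only in Kasumi-1, AP-1 letters are in 9.70% and C/EBP letters in 18.7%.

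Some members lay near others in the genome, and the genes in these groups are named after their values were seen. When members at most 500 kb apart were joined, 170 of 228 stood alone and 58 fell into 26 groups. The same count was not made for other promoter peaks, so the grouping is a description of the members only. The largest group held 4 members over 267 kb of chromosome 12, at CD69, CLEC2B, CLEC12A and CLEC9A, lectin receptor genes of the natural killer complex. Groups of 3 lay at MNDA, IFI16 and AIM2 on chromosome 1 (247 kb) and at MS4A3, MS4A6A and MS4A14 on chromosome 11 (340 kb), and pairs at CD84 and CD48 and at CASP4 and CASP1. The other groups of 3 were 3 peaks at ANXA1 and those at HTATSF1 and ARHGEF6. In 6 of the 26 groups the members had 1 nearest gene, and other groups joined genes of different families, such as CTSS with PSMD4 and RRP12 with PGAM1. Distal peaks found only in both MV4-11 libraries lay within 50 kb of the start of 79 of the 220 genes nearest to members (35.9%), against 24.7% of the genes nearest to promoter peaks in all 4 libraries and 16.6% of those nearest to Kasumi-1-only promoter peaks. For MV4-11 NC promoter peaks that overlapped no Kasumi-1 peak and were not found after knockdown, it was 63 of 226 genes (27.9%). These distal peaks were chosen by the same presence and absence calls as the members. The order of these shares is thus partly set by the rule, and whether it goes beyond that was not tested. CD69, an early activation antigen, had 9 such distal peaks, and ARHGAP25, ELF1, GPR18 and SERPINB2 had 5 each.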

How the data were processed

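H3K27ac CUT&Tag was measured in 4 libraries, 1 per group. The submitters' processing notes name hg38, Bowtie2 2.4.4 and MACS3 3.0, whereas the methods name hg38, other Bowtie2 and MACS2 versions, Picard duplicate removal, merging of replicates and a q-value of 0.01. Whether the 2 IgG samples, not analysed here, served as controls is not given in the sources used here. Each peak list deposited by the authors holds chromosome, start, end and length in bases, counted from 1, with no height or count. The depth is therefore unknown, and width, which moves with depth, was the only measure. The smallest peak also differed between lists (357, 354, 289 and 275 bases in Kasumi-1 NC, Kasumi-1 sh-ANP32B, MV4-11 NC and MV4-11 sh-ANP32B).

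Overlaps were computed with pandas 2.3.3 and numpy 2.4.6. Promoter windows came from canonical transcripts of GENCODE 44 and sequence from hg38. The matching of widths was tested on simulated data. Members and gene lists were chosen with earlier results of these data known. Genes were named where they belonged to the 30 widest members, a gene list, the 5 largest width differences in each direction, the members nearest to a threshold, 1 peak in 3 or more windows, or the markers. Results for 2 genes that meet this rule are not reported here. Other genes are said to be chosen after their values were seen, as are those of the groups along the chromosomes. Alternatives were the promoter window, the overlap, the minimum width, the margin to Kasumi-1, joining of peaks, the starting list, a common minimum width and gap, and the motif window.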

Additional observations from a re-analysis of the deposited data

How the results depend on the processing

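The number of members was 228 and became 108 with a promoter window of 1000 bases, 59 with MV4-11 NC peaks of at least 1000 bases and 141 with no Kasumi-1 peak within 1000 bases. The median log2 width ratio became −0.24 and the median GC content 40.6% for peaks of at least 1000 bases. The share of members across the start, 26.3%, became 55.6% with the 1000-base window, 45.8% for peaks of at least 1000 bases, 34.0% with the 1000-base margin to Kasumi-1 and 33.5% after joining peaks within 1000 bases. The share of member genes with a Kasumi-1 peak in the window, 56.7%, became 20.7% with the 1000-base window, 27.3% with the margin, 42.6% with joined peaks and 64.1% when the rule started from the sh-ANP32B list. The 11 genes of the monocyte and macrophage list became 7 with the 1000-base window, 2 for peaks of at least 1000 bases and 6 when the lists were given 1 smallest width and 1 joining gap (357 bases). These alternatives admit fewer or other regions by construction. Of the other alternatives for these results, 26 moved the value by less than the interval or the 1.5-fold margin. The share across the start thus passed from a minority to a majority with the 1000-base window, and the share with a Kasumi-1 peak from a majority to a minority in 3 of its alternatives. Of the values for single motifs, 15 moved and 33 did not, and most that moved were in the shorter window of 300 bases. No paired analysis was possible because each group has 1 peak list. Unknown depth limits every absence of a peak, which may be one not detectable in that library.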

Other observations

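The members given here were named after their values were seen, with no list or count behind the choice. ANXA1, which encodes annexin A1, an inhibitor of inflammation, was the only gene with 3 members, and its window held 0 bases in both Kasumi-1 libraries, 1441 in MV4-11 NC and 1776 after knockdown. The Kasumi-1 peak nearest to any of the 3 was 563810 bases away. KMO and KYNU, consecutive enzymes of the kynurenine pathway of tryptophan breakdown, had 0 bases in both Kasumi-1 libraries, with 937 and 849 for KMO and 762 and 661 for KYNU in MV4-11 without and with knockdown. All of these windows had peaks in MV4-11 alone.

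LY96, the partner of TLR4 in binding lipopolysaccharide, had 0 bases in both Kasumi-1 libraries, 829 in MV4-11 NC and 666 after knockdown. AQP9, a water and glycerol channel of leukocytes, had 0, 0, 506 and 886 in the control and knockdown libraries of Kasumi-1 and then of MV4-11, and ALOX5, the first enzyme of leukotriene synthesis, 0, 0, 299 and 445. The 3 windows were empty in Kasumi-1 and differed in direction between the MV4-11 libraries. SYK, a tyrosine kinase of immune receptors, had peaks in every library, with 2148, 2158, 3063 and 2802 bases in the same order. PIK3CG, a catalytic subunit of phosphoinositide 3-kinase in leukocytes, had 808, 968, 3876 and 2481, and SUCNR1, the succinate receptor, 144, 271, 3148 and 1653. In these last genes the MV4-11 windows held more bases than those of Kasumi-1 in both conditions.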
